A study of Zea mays with 6 samples.

Results

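Tubulin and actin are the subunits of microtubules and actin filaments, and 4 of their genes are described here: the alpha-tubulin gene tua4 (GRMZM2G152466), the beta-tubulin genes tub6 (GRMZM2G071790) and TUBB2 (GRMZM2G334899), and the actin gene Maz81 (GRMZM2G006765). They were picked by identifier, with their higher level in fl3 already known, from 39448 genes in the deposited tables. All 4 were present in every library and all 4 passed the filter of a mean of at least 1 FPKM, as did 17272 genes in all. FPKM counts the fragments assigned to a gene, scaled to its length and to the size of the library, so levels of different genes can be set side by side.

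The libraries came from endosperm of field-grown maize 10 days after pollination, 3 from the floury3 (fl3) mutant and 3 from wild type (WT), and the design text calls them independent biological replicates. Floury3 kernels have a soft, opaque endosperm, and floury3 belongs to the PLATZ family of plant zinc-binding proteins. The labels give no inbred background, zygosity or allele for either group.

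Alpha- and beta-tubulin pair into the dimers from which microtubules are built, and plants carry several genes for each. Microtubules form the spindle, the phragmoplast that lays down the new wall between daughter cells, and the cortical arrays along which cellulose synthase moves. Actin filaments carry myosin-driven traffic through the cytoplasm and take part in guiding the phragmoplast. In cereal endosperm both systems are known for their part in turning the early syncytium into walled cells and in the divisions that follow.

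The tables hold between 23808 and 24755 genes above 0 per library, FPKM sums run from 465741 to 480602, and sequencing depth is not known. The floury3 gene (GRMZM2G006585) stood at 3214, 3084 and 3176 FPKM in fl3 libraries, against 2100.0, 2427 and 2253 FPKM in WT libraries, and passed the test (log2 fold change 0.48, limma adjusted p = 0.00146). Starchy endosperm markers were present in all libraries, the prolamin gz27 (GRMZM2G138727) at 8630 ± 1372 FPKM in fl3 and 14122 ± 1400 FPKM in WT (SD, n = 3). Of 17272 tested genes, 67.3% were called by limma at an adjusted p under 0.05, 43.5% higher and 23.8% lower in fl3, and these shares are the background for the lists described here. Across tested genes the log2 fold change had a median of 0.14, which became 0.0020 when libraries were scaled by median of ratios. With that scaling 5841 genes were called higher and 5758 lower, against 7519 higher and 4107 lower without it. The share of tested genes without overlap between fl3 and WT libraries was 71.7%, and that with all fl3 libraries below all WT libraries was 25.9%.

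The alpha-tubulin gene tua4 was the most abundant of the 4. It measured 1159.9, 1130.0 and 1189.8 FPKM in fl3 libraries 1, 2 and 3, against 508, 550.3 and 537 FPKM in WT libraries 1, 2 and 3. The lowest fl3 library was 2.05 times the highest WT library. Means were 1159.9 ± 29.9 FPKM in fl3 and 532 ± 21.6 FPKM in WT (SD, n = 3), a ratio of means of 2.18 and a log2 difference of 1.12 (SE 0.07) on the log2(FPKM + 1) scale. That level put tua4 above 99.9% of tested genes in fl3 and above 99.5% in WT.

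The beta-tubulin gene tub6 measured 279, 289 and 318 FPKM in the fl3 libraries, against 129, 120.3 and 117 FPKM in the WT libraries. The genotypes did not overlap, and the mean of 295 ± 20.2 FPKM in fl3 was 2.41 times the 122 ± 6.09 FPKM in WT (log2 difference 1.26, SE 0.07). TUBB2, a second beta-tubulin gene, measured 62.1, 61.7 and 63.0 FPKM in the fl3 libraries, against 17.0, 12.5 and 14.6 FPKM in the WT libraries. Its fl3 libraries lay close together and its WT libraries were further apart relative to their level, with coefficients of variation of 1.07% in fl3 and 15.4% in WT. The median coefficient over tested genes was 7.68% in fl3 and 7.81% in WT. The ratio of means of TUBB2 was 4.23 (62.3 ± 0.667 FPKM in fl3 and 14.7 ± 2.27 FPKM in WT, log2 difference 2.02, SE 0.10).

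The actin gene Maz81 was the least abundant of the 4 in both genotypes and had the largest ratio among them. It measured 33.6, 29.4 and 35.3 FPKM in fl3 libraries, against 3.82, 4.64 and 3.79 FPKM in WT libraries. The lowest fl3 library was 6.34 times the highest WT library. Means were 32.8 ± 3.03 FPKM in fl3 and 4.08 ± 0.485 FPKM in WT (SD, n = 3), a ratio of 8.03 and a log2 difference of 2.73 (SE 0.09). In fl3 this level exceeded that of 83.6% of tested genes, and in WT that of 32.8%.

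**Figure D1:**
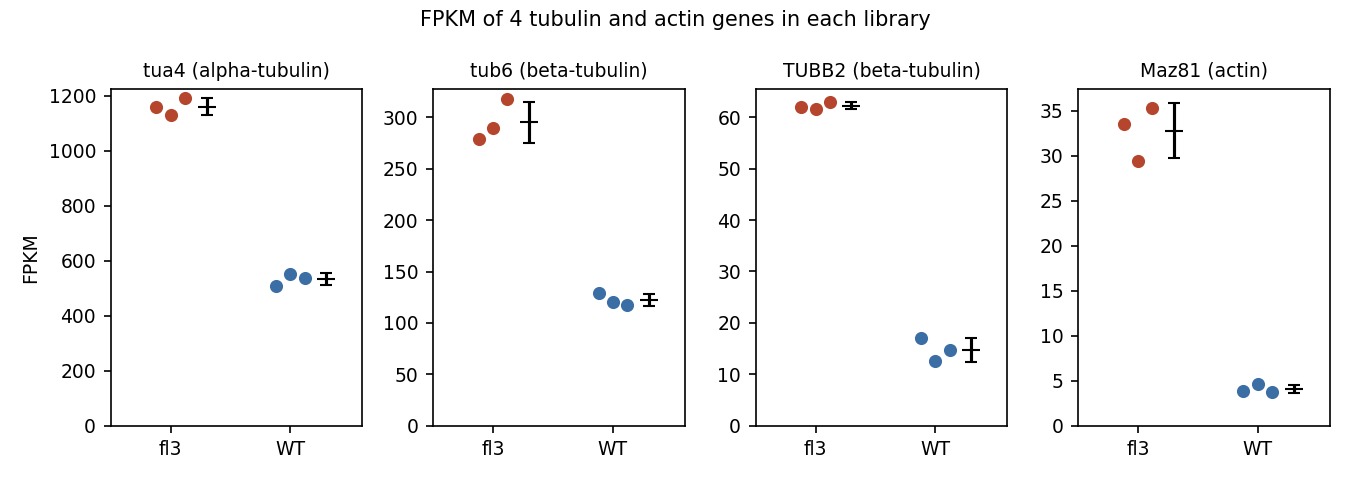
FPKM (y axes from 0, one scale per panel) of tua4, tub6, TUBB2 and Maz81 in the 3 fl3 libraries (red) and the 3 WT libraries (blue), with the mean and SD of each genotype in black beside the points. In every panel the 3 fl3 points lie above the 3 WT points, with the widest relative gap for Maz81 (32.8 against 4.08 FPKM).

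In each genotype the level fell in the order tua4, tub6, TUBB2, Maz81, and neighbours in that order did not overlap in any pair of libraries of the same genotype. The order of the ratios ran the other way, 2.18, 2.41, 4.23 and 8.03. All 4 genes had every fl3 library above every WT library, which held for 45.8% of tested genes, and all 4 had a ratio of means of at least 2, which held for 14.6%. These values are those that led to the choice of the genes, so they are a description and no test is given for them. The reference gene table places tua4 on chromosome 5, tub6 on chromosome 3, TUBB2 on chromosome 8 and Maz81 on chromosome 2. That table uses another assembly than the files, so no coordinates are given.

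The other tubulin and actin genes with a name in that table were not chosen for their values and were tested. Of 16 such genes 15 passed the filter, and of these 7 rose, 3 fell and 5 did not pass in the limma fit over all genes. Their median log2 fold change was 0.20, beside 0.14 for all tested genes. The shares of all tested genes called by the same rule were 43.5% higher and 23.8% lower, and the pooled counts lay near them. The pool leaves out 4 genes picked for a higher level in fl3, so its counts do not describe the whole families. It also joins unlike parts. Of 10 other tubulins 6 rose and 2 fell (median log2 fold change 0.51), and of 5 other tested actins 1 rose and 1 fell (median 0.01). Under median-of-ratios scaling 7 rose and 6 fell. Copies within each family are close in coding sequence, so fragments divided between them are uncertain for every gene named.

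Among alpha-tubulins, 2 of 3 other genes rose and 1 fell. The identifier matched to TUA1 and also to TUA2 (GRMZM2G153292), which the tables do not separate, measured 928, 910.0 and 976 FPKM in fl3, against 571, 613 and 595 FPKM in WT. It rose 1.58-fold (log2 fold change 0.66, SE 0.07, limma adjusted p = 3.83e-05). The gene tua5 (GRMZM2G099167) rose to 65.2 ± 4.75 FPKM in fl3, against 50.2 ± 3.08 FPKM in WT (limma adjusted p = 0.00183). The gene tua6 (GRMZM2G083243) went the other way, at 148 ± 4.71 FPKM in fl3 and 185 ± 3.60 FPKM in WT, without overlap (log2 fold change -0.32, limma adjusted p = 0.000683).

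Among beta-tubulins, 3 of 5 other genes rose, 1 fell and 1 did not pass. The gene tub5 (GRMZM2G133802) measured 301, 273 and 274 FPKM in fl3, against 153, 131 and 143 FPKM in WT. Its ratio of means was 1.99 (limma adjusted p = 6.94e-06), and its mean lay close to that of tub6 in both genotypes. The low-level genes tub4 (GRMZM2G066191) and TUB8 (GRMZM2G472945) rose, at 7.84 ± 1.69 and 4.43 ± 0.429 FPKM in fl3 against 2.20 ± 0.0905 and 2.44 ± 0.0885 FPKM in WT. The gene tub3 (GRMZM2G108766) fell to 3.17 ± 0.307 FPKM in fl3, against 4.66 ± 0.222 FPKM in WT (limma adjusted p = 0.00192).

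TUB1 (GRMZM2G164696) was the most abundant beta-tubulin gene in WT and showed no such difference. It measured 163, 154 and 158 FPKM in fl3, against 154, 155 and 164 FPKM in WT, and the genotypes overlapped (log2 fold change 0.01, SE 0.05, limma adjusted p = 0.889). Under median-of-ratios scaling it was lower in fl3, at a log2 fold change of -0.15 with limma adjusted p = 0.0362. Gamma-tubulin, which seeds new microtubules, split likewise. The gene tubg1 (GRMZM2G073888) rose to 10.1 ± 0.117 FPKM in fl3, against 5.63 ± 0.0150 FPKM in WT (limma adjusted p = 1.43e-05). TUBG2 (GRMZM2G085970) stood at 10.2 ± 0.487 FPKM in fl3 and 10.2 ± 0.330 FPKM in WT (limma adjusted p = 0.945).

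Among actins, 1 of 5 other tested genes rose, 1 fell and 3 did not pass. Maz83 (GRMZM2G126190) measured 73.9, 66.5 and 78.0 FPKM in fl3, against 19.6, 18.8 and 19.1 FPKM in WT, and rose 3.80-fold (log2 fold change 1.87, SE 0.07, limma adjusted p = 2.03e-07). Maz63 (GRMZM2G053284) stayed under the filter, at 0.210 ± 0.0322 FPKM in fl3 and 0.0354 ± 0.0117 FPKM in WT. With no filter 2 of the 6 other actins rose. The most abundant actin, act1 (GRMZM2G126010), measured 189, 185 and 202 FPKM in fl3, against 193, 192 and 189 FPKM in WT, with overlap (limma adjusted p = 0.903). Its log2 fold change of 0.01 became -0.16 under median-of-ratios scaling (limma adjusted p = 0.039).

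The next 3 actins in level did not rise. Maz95 (GRMZM2G053299) was at 129.6 ± 3.51 FPKM in fl3 and 135.5 ± 2.57 FPKM in WT (log2 fold change -0.06, limma adjusted p = 0.291), and was called lower under median-of-ratios scaling (-0.23) and quantile normalization (-0.14). Of 2 genes named Actin-7, GRMZM2G082484 fell to 91.4 ± 6.96 FPKM in fl3, against 128.8 ± 17.0 FPKM in WT (limma adjusted p = 0.00214). The other, GRMZM2G067985, had 78.3 ± 8.20 FPKM in fl3 and 67.9 ± 5.82 FPKM in WT and did not pass (log2 fold change 0.20, limma adjusted p = 0.0746). It passed without fl3 replicate 2 (0.26) and without WT replicate 2 (0.26).

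**Figure D2:**
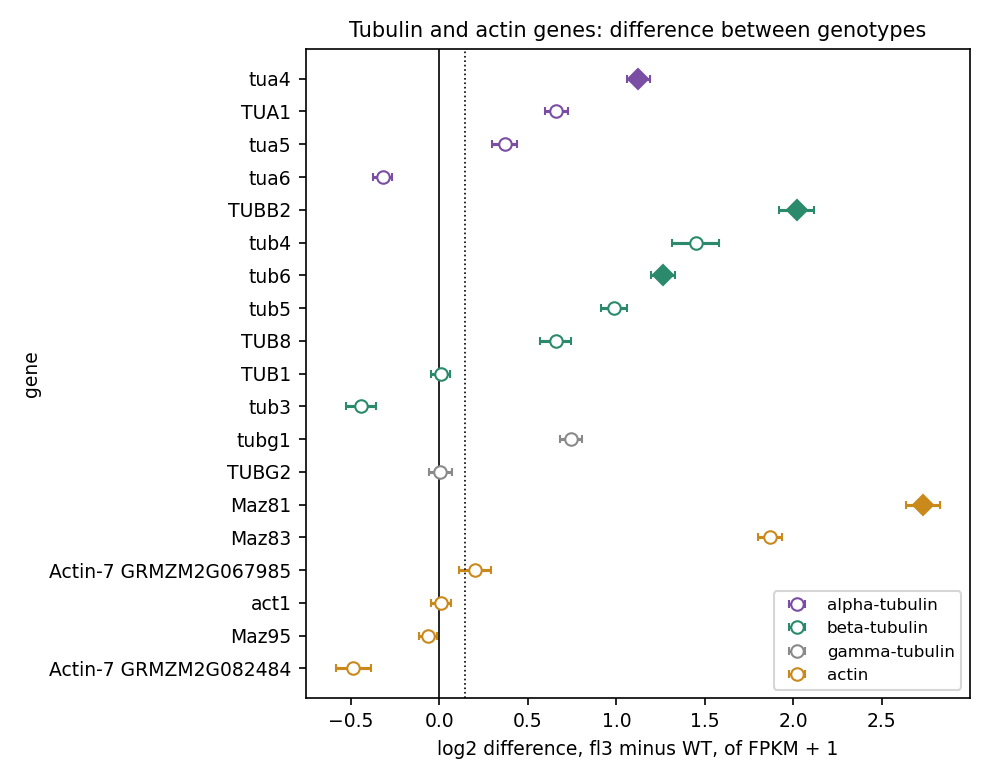
Log2 difference of FPKM + 1, fl3 minus WT (x axis), for the 19 tubulin and actin genes that passed the filter (rows), with bars of 1 SE from limma. Filled diamonds are tua4, TUBB2, tub6 and Maz81, open circles the other genes, and the dotted line is the median of all tested genes (0.14). Each family holds genes to the right of the line and genes at or left of 0, from 2.73 for Maz81 to -0.49 for GRMZM2G082484.

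Summed over their named genes, alpha- and beta-tubulin had ratios of fl3 to WT means of 1.70 and 1.83, and actin had a ratio of 1.09. The sums include the 4 chosen genes, so they are given without a test. Alpha-tubulin summed to 2311 ± 68.4 FPKM in fl3 and 1360.0 ± 36.2 FPKM in WT (SD, n = 3). Without tua4 the sum of the other 3 was 1151 ± 38.6 FPKM in fl3 and 828 ± 14.7 FPKM in WT. Beta-tubulin summed to 814 ± 19.6 FPKM in fl3 and 446 ± 17.6 FPKM in WT, and without tub6 and TUBB2 to 457 ± 20.5 FPKM in fl3 and 309 ± 12.3 FPKM in WT.

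The ratio of the alpha to the beta sum lay between 2.81 and 2.87 in fl3 libraries and between 2.86 and 3.26 in WT libraries, with overlap. The actin sum was 597 ± 32.2 FPKM in fl3 and 546.5 ± 20.7 FPKM in WT, with libraries from 570.6 to 633 FPKM in fl3 and from 529 to 569 FPKM in WT, which did not overlap. Without Maz81 the actin sum ran from 541 to 598 FPKM in fl3 libraries and from 525 to 565 FPKM in WT libraries, and the genotypes overlapped.

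Shares of each family sum are given as a description, since tua4, tub6, TUBB2 and Maz81 were chosen for their higher level in fl3 and their shares follow from that choice. The share of tua4 in the alpha-tubulin sum was 50.2% ± 0.194 in fl3 and 39.1% ± 0.558 in WT, and that of tua6 was 6.41% ± 0.180 in fl3 and 13.6% ± 0.626 in WT (SD, n = 3). In the beta-tubulin sum tub6 held 36.3% ± 2.18 in fl3 and 27.4% ± 1.05 in WT, and TUBB2 held 7.65% ± 0.120 in fl3 and 3.29% ± 0.380 in WT. The share of TUB1 was 19.5% ± 0.393 in fl3 and 35.4% ± 1.74 in WT. Its deposited FPKM overlapped between genotypes, so on that scale its share differed through the sum of the other genes. Under median-of-ratios scaling TUB1 itself was lower in fl3 (log2 fold change -0.15).

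The share of tub5 was 34.7% ± 1.87 in fl3 and 31.8% ± 1.13 in WT. In fl3 library 1 tub5 held more of the sum than tub6, 36.7% against 34.0%, and in fl3 libraries 2 and 3 tub6 held more. TUB1 held the largest share in each WT library. In the actin sum Maz81 held 5.48% ± 0.286 in fl3 and 0.748% ± 0.0969 in WT, and Maz83 held 12.2% ± 0.469 in fl3 and 3.51% ± 0.0841 in WT. The gene act1 led the actin sum in both genotypes, at 32.2% ± 0.266 in fl3 and 35.0% ± 0.995 in WT.

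**Figure D3:**
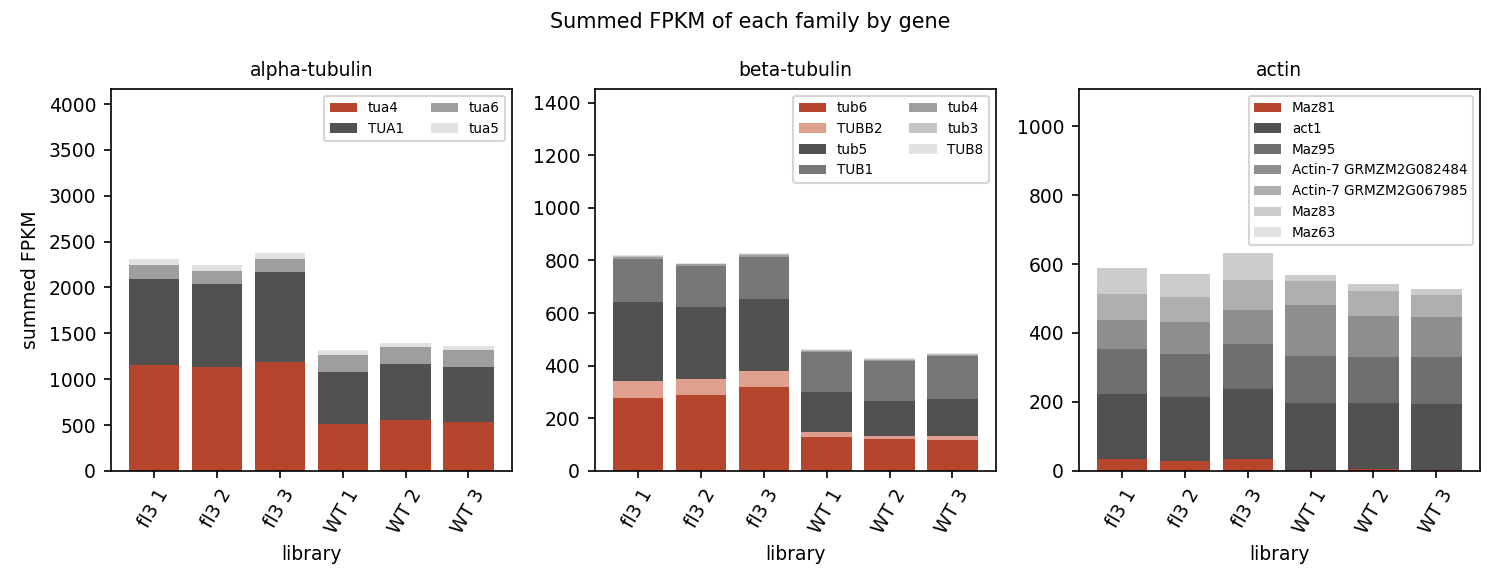
Summed FPKM (y axes from 0) of the named alpha-tubulin, beta-tubulin and actin genes in each of 6 libraries (x axes, fl3 libraries left), stacked by gene, with tua4, tub6, TUBB2 and Maz81 in red tones and the other genes in greys. The alpha- and beta-tubulin bars are taller in all 3 fl3 libraries (means 2311 and 814 FPKM in fl3, against 1360.0 and 446 FPKM in WT), and the actin bars differ less (597 FPKM in fl3 and 546.5 FPKM in WT).

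Genes that act with the cytoskeleton were counted from lists set by gene name. Of the microtubule-associated list, which holds kinesin motors, the division-plane gene tan1 and the severing enzyme katanin, all 12 genes were tested, and 8 rose, 2 fell and 2 did not pass (median log2 fold change 0.33). The most abundant, kin9 (GRMZM5G881464), had 44.2 ± 2.90 FPKM in fl3 and 36.6 ± 1.19 FPKM in WT (limma adjusted p = 0.00521) and did not pass under median-of-ratios scaling (0.10, limma adjusted p = 0.164). A katanin gene, ktn2 (GRMZM2G017305), rose to 23.1 ± 1.81 FPKM in fl3, against 17.4 ± 0.519 FPKM in WT (limma adjusted p = 0.00105). Other identifiers of ktn2 differed. GRMZM2G054715 rose (log2 fold change 0.86), and GRMZM2G054663 did not pass, at 2.03 FPKM in fl3 and 2.99 FPKM in WT (-0.38, limma adjusted p = 0.0714).

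Kinesin KIN6 (GRMZM2G114861) was the deepest fall of that list, with 10.5, 8.50 and 7.47 FPKM in fl3 against 17.8, 17.9 and 18.8 FPKM in WT (log2 fold change -0.98, limma adjusted p = 6.29e-05). The kinesins kin4 (GRMZM2G320689) and KIN8 (GRMZM2G132371) rose by log2 fold changes of 0.59 and 0.50. The call of kin11 (GRMZM2G436981; log2 fold change 0.28, limma adjusted p = 0.0461) was lost when any 1 library other than fl3 replicate 3 was left out, with an adjusted p of up to 0.149.

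Of 10 tested actin-binding genes 4 rose, 4 fell and 2 did not pass, with a median log2 fold change of 0.01, and 5 of the 15 listed stayed under the filter. Among profilins, which bind actin monomers, prf5 (GRMZM5G877388) fell to 103 ± 7.46 FPKM in fl3, against 138 ± 7.17 FPKM in WT (limma adjusted p = 0.000698), and PRO4 (GRMZM2G108780) to 70.3 ± 2.65 FPKM in fl3, against 109.9 ± 1.46 FPKM in WT (limma adjusted p = 1.19e-05). A second identifier of prf5 (GRMZM2G028594) did not pass, at 9.39 FPKM in fl3 and 9.07 FPKM in WT.

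The actin depolymerizing factor ADF3 (GRMZM2G060702), which severs filaments, had 128.3 ± 7.30 FPKM in fl3 and 109.2 ± 5.27 FPKM in WT (limma adjusted p = 0.0111), a call lost under median-of-ratios scaling. Villin-2 (GRMZM2G180988), of a family that bundles filaments, rose by a log2 fold change of 0.45. Subunits of the SCAR/WAVE complex, which promotes branched actin filaments, moved apart. BRK3 (GRMZM5G886363) rose to 22.1 ± 0.803 FPKM in fl3, against 7.01 ± 0.573 FPKM in WT (limma adjusted p = 7.12e-07), while brk1 (GRMZM5G842058) fell to 17.5 ± 1.17 FPKM in fl3, against 29.0 ± 3.02 FPKM in WT (limma adjusted p = 0.000118). The table pairs BRK3 with 3 identifiers, so its reads may be divided. Of the others, GRMZM2G180150 rose (log2 fold change 1.46), and GRMZM2G180166 did not pass, at 1.57 FPKM in fl3 and 1.61 FPKM in WT.

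The wall synthesis list had 10 tested genes, all cellulose synthases, of which 4 were higher in fl3, 3 were lower and 3 did not pass (median log2 fold change -0.01). The most abundant, cesa5 (GRMZM2G111642), rose to 117 ± 5.79 FPKM in fl3, against 80.2 ± 5.85 FPKM in WT (limma adjusted p = 0.000145), while cesa3 (GRMZM2G039454) had 85.4 ± 3.80 FPKM in fl3 and 82.6 ± 1.94 FPKM in WT (limma adjusted p = 0.48). Under median-of-ratios scaling 2 rose and 4 fell, and with 1 library left out 3 rose and 2 or 3 fell. The call of cesa10 (GRMZM2G445905; log2 fold change -0.19, limma adjusted p = 0.043) was lost when any 1 library other than fl3 replicate 2 was left out. Of 9 tested cyclins and division kinases 8 rose and 1 did not pass (median log2 fold change 1.25), and under median-of-ratios scaling 8 rose and 1 fell. Of 12 listed, 3 stayed under the filter. Cyclin-SDS (GRMZM2G093157) lay lower in fl3, at 0.450 ± 0.0985 FPKM against 1.24 ± 0.198 FPKM in WT, and cycD1 and cycD4 lay higher. With no filter 9 of the 12 rose and 1 fell. The mitotic kinase cdc2 (GRMZM2G008327) rose to 20.8 ± 1.14 FPKM in fl3, against 12.7 ± 0.721 FPKM in WT (limma adjusted p = 3.94e-05).

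**Figure D4:**
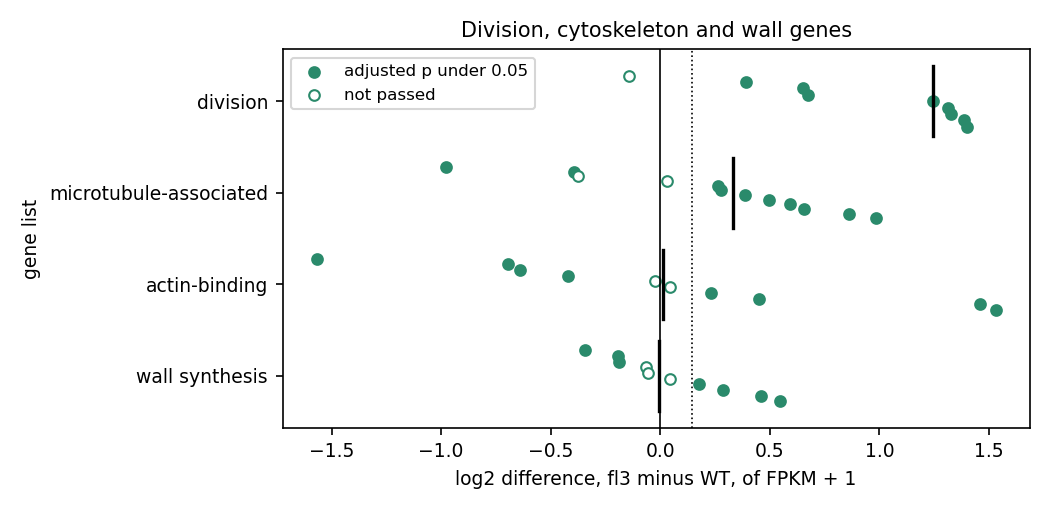
Log2 difference of FPKM + 1, fl3 minus WT (x axis), of the tested genes in 4 lists (rows), with filled points for a limma adjusted p under 0.05, open points for genes that did not pass, a black bar for each list's median and a dotted line for the median of all tested genes (0.14). The division list sits to the right (median 1.25), the microtubule-associated list spreads around 0.33, and the actin-binding and wall synthesis lists straddle 0 (medians 0.01 and -0.01).

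Markers of several cell types differed between the same libraries. Embryo-surrounding region markers summed to between 472 and 612 FPKM in fl3 libraries and between 142 and 179 FPKM in WT libraries, and all 5 tested rose, while ae1 was under the filter. Embryo markers summed to between 227 and 258 FPKM in fl3 and between 151 and 168 FPKM in WT. Of 4 tested, 2 rose and 0 fell, and 3 of 7 rose with no filter. Most of the sum was ole1 (GRMZM2G337229), at 219.4 FPKM in fl3 and 139.8 FPKM in WT. Of the other tested markers vp1 rose, and wox2A and glb1 did not pass. Of the 3 embryo markers under the filter, lec1 (GRMZM2G011789), a regulator of embryo development, measured 1.66, 1.03 and 1.07 FPKM in fl3, against 0, 0.0421 and 0 FPKM in WT, without overlap. The other two, glb2 (GRMZM2G026703) and wox5B (GRMZM2G116063), were at no more than 0.120 FPKM in any library. Aleurone markers summed to between 255 and 268 FPKM in fl3 and between 181 and 196 FPKM in WT, with 2 of 4 tested up. Under median-of-ratios, quantile and upper-quartile scaling 1 of the 4 was called lower. The pigment regulators c1 and r1 were listed at 0 in every library.

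Starchy endosperm markers summed to between 11298 and 15428 FPKM in fl3 and between 23416 and 28208 FPKM in WT, with 8 of 9 down and 1 up that did not pass under median-of-ratios scaling. The 1 up was an identifier of pbf1 (GRMZM2G146267, log2 fold change 0.23). Another identifier of pbf1 (GRMZM2G146283) was among those down (-1.16). So was gz27 (log2 fold change -0.72), which did not pass under quantile normalization or with no filter (limma adjusted p = 0.149 with no filter). Basal transfer layer markers overlapped, between 2790 and 5259 FPKM in fl3 and between 2582 and 3627 FPKM in WT, with 3 of 8 tested up and 1 down, and 1 up without WT replicate 3. All 3 markers of green maternal tissue were under the filter. In bulk tissue, fewer cells of a type and less RNA per cell cannot be told apart, and the part of these cell types in the tubulin and actin differences was not tested.

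The named genes most like each of the 4 over the 6 libraries were ranked by Pearson's r of log2(FPKM + 1), as a description. The ranking covered 1718 named genes of the 17272 tested, and r does not measure the size of a difference. For TUBB2 the top genes were the receptor kinase gene cr4 (GRMZM2G051637), the cell-wall invertase gene incw1 (GRMZM2G139300) and ms8 (GRMZM2G119265), at r of 0.999, 0.999 and 0.999. Of these, cr4 had 15.7 FPKM in fl3 and 4.65 FPKM in WT, incw1 7.61 and 2.09 FPKM, and ms8 14.2 and 11.4 FPKM. For tub6 they were fcr2 (GRMZM2G157263), mir2 (GRMZM2G150256) and ccp1 (GRMZM2G098298), and for tua4 mlo8 (GRMZM5G881803), mfs2 (GRMZM5G877788) and SAG (GRMZM2G041175). For Maz81 they were the glutathione transferase gene gst6 (GRMZM2G129357), cha101 (GRMZM2G177165) and WNK6 (GRMZM5G878530).

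Among themselves the 4 genes had r between 0.984 and 0.999, the highest for tua4 with Maz81 and the lowest for tua4 with TUBB2. All 6 points of each r come from the same fl3 and WT libraries. Between 23.4% and 25.0% of tested genes had r of at least 0.95 with any 1 of the 4.

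The nearest genes to the 4 in the reference gene order did not all move with them. Places were counted only among genes matched to an identifier of the deposited tables. Reference genes without a match were skipped, so other genes may lie between. Of the 16 matched genes at up to 2 such places on either side, 14 passed the filter. Of these 9 rose, 4 fell and 1 did not pass, where 43.5% of all tested genes were called higher and 23.8% lower. Beside tub6, GRMZM2G073003 rose to 21.3 ± 2.18 FPKM in fl3, against 8.46 ± 0.552 FPKM in WT (limma adjusted p = 4.89e-06). Beside Maz81, GRMZM2G010282 rose to 10.5 ± 1.06 FPKM in fl3, against 3.72 ± 0.303 FPKM in WT (limma adjusted p = 6.18e-06). At 2 matched places from TUBB2, GRMZM2G087451 fell to 4.09 ± 0.119 FPKM in fl3, against 7.78 ± 0.715 FPKM in WT (limma adjusted p = 5.21e-05). These 3 were picked as examples after their values were seen.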

How the data were processed

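RNA sequencing of endosperm gave 6 libraries, 3 fl3 and 3 WT. The values used are FPKM as the authors deposited them, 1 table per library. Per the submitters' processing notes, FastQC, TopHat and Bowtie2 and the build B73 RefGen_v3 were used, with no role or order given. The sources used here do not name the FPKM tool, the annotation or the strand setting. Low values did not fall into steps of whole reads: at most 8.79% of low genes lay within 1% of the commonest ratio between 2 libraries, so depth is unknown and no count test was run.

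Names came from the RefSeq gene table of Zm-B73-REFERENCE-NAM-5.0, which matched 18906 of 39448 identifiers. Genes averaging 1 FPKM or more were tested with limma 3.58.1 in R 4.3.3 (lmFit, eBayes with trend) on log2(FPKM + 1), genotype as the only term, two-sided, with Benjamini-Hochberg adjustment over 17272 genes and a threshold of 0.05. That scale understates the change of low genes. The fit was tested on simulated data in which few genes differed between groups. Most tested genes were called here, so that run does not cover such a case.

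The 4 genes and the lists were chosen with earlier results of these data known. Lists were set by gene symbol, and the planned choice of family members by protein identity, with its stricter and looser settings, was not run, since no protein table was used here. The names Actin-7 and Villin-2 were added, and symbols of other proteins dropped, after the tables were opened and by name alone. Named genes are the 4, all other tested family genes, up to 6 of highest mean per list (2 per marker list) and the 3 most like each of the 4. The genes tua3, tub7 and act2 were not analysed here. Alternatives changed the pseudocount (0.1, 0.5), the filter (none, 5 FPKM), the scaling, the variance trend and the replicate block, and left out each library in turn. The design text calls the replicates independent without saying how, so p-values measure the spread between these libraries.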

Additional observations from a re-analysis of the deposited data

How the results depend on the processing

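The 4 chosen genes were higher in fl3 under all 15 alternatives. Under median-of-ratios and upper-quartile scaling their log2 differences were 1.86 and 1.86 for TUBB2, 1.10 and 1.10 for tub6, 0.96 and 0.96 for tua4, and 2.59 and 2.58 for Maz81. Quantile normalization gave 1.38 for tua4 and 2.57 for Maz81, and a pseudocount of 0.1 gave 2.98 for Maz81. Leaving out 1 library at a time gave 1.91 to 2.12 for TUBB2, 1.21 to 1.30 for tub6, 1.09 to 1.15 for tua4 and 2.68 to 2.81 for Maz81. The other tubulins and actins had 6 genes lower under median-of-ratios scaling and 6 under upper-quartile scaling, against 3 as reported, and 7 to 8 higher and 3 to 3 lower without 1 library. Partner genes had 14 lower under quantile normalization, against 9 as reported, and 22 to 23 higher and 8 to 9 lower without 1 library. Marker lists had 12 to 13 higher and 9 to 9 lower without 1 library, against 13 and 9 as reported. Under median-of-ratios scaling they had 11 higher and 10 lower, and under quantile normalization 11 and 8. With a filter of 5 FPKM, 4771 genes rose, of 11264 tested, where fewer genes were tested; without 1 library 6888 to 7357 rose and 3613 to 4007 fell. The split of calls moved with the scaling, to 5841 higher and 5758 lower with median-of-ratios and 5549 higher and 5947 lower with quantile scaling.

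TUB1 turned to -0.15 and -0.16 and act1 to -0.16 and -0.16 under median-of-ratios and upper-quartile scaling, and the cause was not tested. Of 50 named genes tested under the alternatives, 11 changed call or direction at least once. With the replicate block 7240 genes rose and 3897 fell, the other tubulins and actins kept counts of 7 and 3, and 2 named genes, kin11 and cesa10, lost their call. Libraries of the same number correlated at -0.153, 0.0716 and -0.0227 in their deviations, so the numbers were not taken as pairs. Depth is unknown, so counting error of low genes such as Maz63 cannot be given. The alternatives that set family membership by protein identity were not run.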
